A study of Mus musculus with 2 samples.

Results

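Insulin-like growth factor (IGF) binding proteins are described here in lung cells of old mice sorted for a p16 reporter. The members were taken as the 6 rows named Igfbp2, Igfbp3, Igfbp4, Igfbp5, Igfbp6 and Igfbp7 of the deposited expression table, out of 15526 genes, and all 6 were found. The cells came from p16-FDR mice on the C57BL/6 strain, aged 20 to 22 months. Their p16 reporter combines a FLP recombinase, optimised for mammalian cells, with the fluorescent protein mCherry joined to a receptor for diphtheria toxin. The study has 1 group of 2 samples, the mCherry-positive lung cells isolated by fluorescence-activated sorting, and no young or mCherry-negative group. Every cell described therefore shares the reporter, the age range and the sort, and each comparison is between cell classes within the sorted population.

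The table held 1344 cells from 2 droplet libraries with 9738042 unique molecular identifiers (UMIs, each counting 1 captured transcript molecule). Library 1 gave 1145 cells and library 2 gave 199 cells, with median depths of 5631 and 6716 UMIs per cell. No barcode was shared between the libraries. The library numbers match neither sample title, so the table was treated as 1 sample and no statistical test was made. Intervals in parentheses are exact 95% Poisson intervals of a rate or a ratio of rates and cover counting error only. Cdkn2a, which encodes p16, had a UMI in 449 cells (33.4%), and the mCherry transcript had a UMI in 73 cells (5.43%).

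Circulating and local IGF1 and IGF2 are held by binding proteins with a conserved amino-terminal domain, which carry the growth factors, slow their loss and limit or prolong their access to the IGF1 receptor. IGFBP3 and IGFBP5 form large complexes in blood with the acid-labile subunit, IGFBP6 prefers IGF2, and proteases such as PAPPA release the growth factors by cutting IGFBP4 and IGFBP5. IGFBP7 binds IGF weakly, is stored in the vessel basement membrane and can bind the endothelial surface protein CD93. Several binding proteins, IGFBP7 and IGFBP3 among them, are counted among the factors that senescent cells secrete.

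Genes of the family lie on 4 chromosomes in the mouse assembly GRCm38 (GENCODE annotation, release M21). Igfbp2 (ENSMUSG00000039323.18) lies on chromosome 1 at 72824503 to 72852474 on the plus strand, and Igfbp5 follows at 72857932 to 72874884 on the minus strand. The pair points tail to tail across 5457 bases with 0 protein-coding genes between. Igfbp3 lies on chromosome 11 at 7206086 to 7213923 on the minus strand, 3539 bases from Igfbp1, and Igfbp4 on the same chromosome at 99041244 to 99054392 on the plus strand. Igfbp6 lies on chromosome 15 at 102144362 to 102149511 on the plus strand. Igfbp7 lies on chromosome 5 at 77349240 to 77408041 on the minus strand, and 2 genes on the opposite strand, Polr2b and Gm34648, overlap it. Igfbp2, Igfbp4, Igfbp5 and Igfbp6 have 4 exons each, Igfbp3 has 5 and Igfbp7 has 6.

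The 250 bases before the start sites of Igfbp7, Igfbp4 and Igfbp6 are shown because these abundant members are highest in different cells. The sequences come from RefSeq (GRCm38.p6), written 5′ to 3′ on the gene's strand, and all 6 members had a window. Start sites are those of RefSeq, which for Igfbp6 and, by a few bases, Igfbp7 lie upstream of the GENCODE starts given above. Capitals mark a TATA box (TATAAA), a GC box (GGGCGG) or an ETS-type core (AGGAAG), each searched on both strands. None of these 3 motifs overlaps another of them in the windows shown.

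Igfbp7, chr5:77408046-77408295, minus strand: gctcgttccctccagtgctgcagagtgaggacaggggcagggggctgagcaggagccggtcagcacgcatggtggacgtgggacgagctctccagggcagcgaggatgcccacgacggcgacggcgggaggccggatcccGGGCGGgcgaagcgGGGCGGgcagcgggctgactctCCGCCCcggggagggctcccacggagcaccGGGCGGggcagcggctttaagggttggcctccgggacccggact

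Igfbp4, chr11:99040994-99041243, plus strand: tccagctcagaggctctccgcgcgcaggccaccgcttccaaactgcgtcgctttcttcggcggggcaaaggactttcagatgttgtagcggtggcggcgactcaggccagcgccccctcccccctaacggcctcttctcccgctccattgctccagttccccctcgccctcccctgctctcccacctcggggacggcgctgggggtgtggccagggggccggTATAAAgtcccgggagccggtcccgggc

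Igfbp6, chr15:102143936-102144185, plus strand: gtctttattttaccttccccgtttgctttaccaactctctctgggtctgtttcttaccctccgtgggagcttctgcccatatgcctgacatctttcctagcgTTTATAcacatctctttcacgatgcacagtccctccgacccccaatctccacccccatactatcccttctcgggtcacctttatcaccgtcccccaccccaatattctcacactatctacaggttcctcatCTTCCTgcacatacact

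Igfbp7, the endothelial member, had 4 GC boxes, no TATA box and 26 CpG dinucleotides, which put it at the 91.4th percentile of CpG count among 32851 RefSeq windows of the same length. The Igfbp4 window had a TATA box, no GC box and 22 CpG dinucleotides (86.7th percentile). The Igfbp6 window, of a member almost restricted to mesenchymal cells, had 7 CpG dinucleotides (57.0th percentile), a TATA box on the reverse strand (TTTATA) and an ETS-type core on the reverse strand (CTTCCT). Among all windows 12.4% held a TATA box, 32.7% a GC box and 29.5% an ETS-type core. The E-box CANNTG was found in 66.2% of windows, including those of Igfbp4 and Igfbp6 but not that of Igfbp7. These are matches of letters in a short window and describe the sequences only.

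Cells were grouped by clusters that were computed without the 6 members and without other genes of the IGF axis, and were named from marker genes. Endothelial-like cells numbered 603 (449 in library 1 and 154 in library 2), mesenchymal-like cells 213 (209 and 4), cells of immune clusters 511 (472 and 39) and club-cell-like epithelial cells 17 (15 and 2). A level is given as UMIs of the gene per 10000 UMIs of the cells of a class. Each transcript is counted from its 3′ end and levels are not scaled by gene length. A difference is called when the ratio of 2 levels passes 2-fold, among genes detected in at least 1% of the cells compared.

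Igfbp7 was the most abundant member, with 35063 UMIs in 814 cells (60.6%), of which 81.8% lay in endothelial-like cells and 16.9% in mesenchymal-like cells. Igfbp4 had 4036 UMIs in 461 cells (34.3%), with 79.6% in mesenchymal-like cells, 11.7% in immune clusters and 8.23% in endothelial-like cells. Igfbp6 had 3980 UMIs in 217 cells (16.1%) and Igfbp5 1997 UMIs in 119 cells (8.85%). Both of these were almost wholly mesenchymal, with 97.8% of the Igfbp6 UMIs and 97.8% of the Igfbp5 UMIs in that lineage. Igfbp3 had 150 UMIs in 47 cells, 77.3% of them mesenchymal. Igfbp2 was the rarest, with 95 UMIs in 12 cells, 9 of them mesenchymal-like and 3 club-cell-like. No UMI was seen in 603 endothelial-like cells, where a floor of 3 counts corresponds to 0.498% of cells and the exact binomial upper bound was 0.610%.

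**Figure D1:**
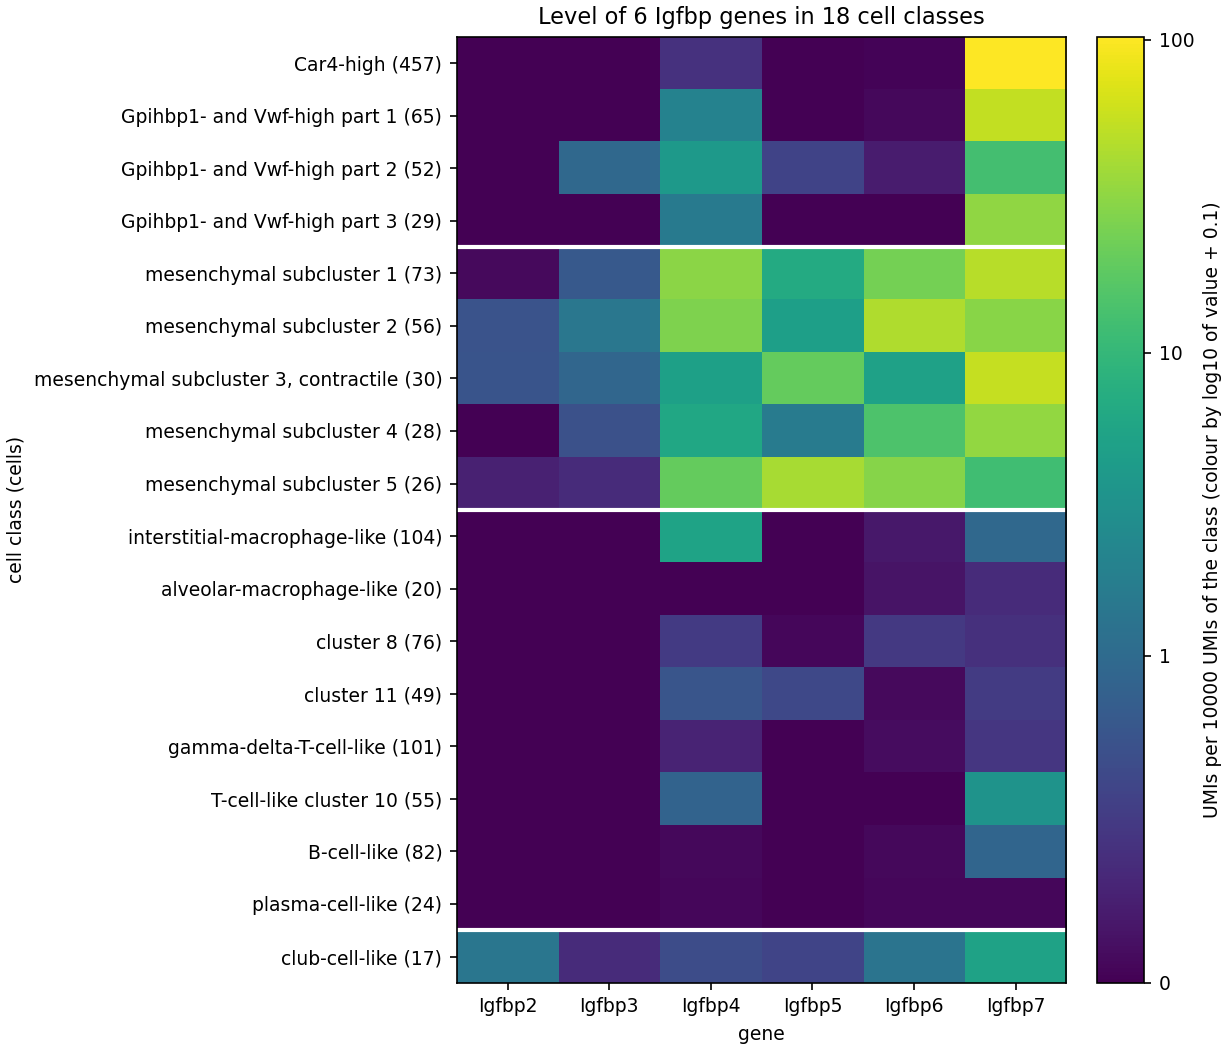
Level of each member (columns) in 18 cell classes (rows, with the number of cells), as UMIs per 10000 UMIs of the class on a log colour scale. Igfbp7 is brightest in Car4-high endothelial cells (100.6), while Igfbp4, Igfbp5 and Igfbp6 are brightest in mesenchymal subclusters 1, 5 and 2.

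Endothelial-like and mesenchymal-like cells carried similar summed amounts of binding protein transcripts with different makeup. Summed over the 6 members the level was 81.6 (80.7 to 82.6) in endothelial-like cells and 97.0 (95.5 to 98.6) in mesenchymal-like cells. Igfbp7 alone made up 98.7% of the endothelial sum and 39.1% of the mesenchymal sum. Single endothelial-like cells mostly held 1 member, in 471 of 603 cells, and only 4 held 3 or more. By contrast, 196 of 213 mesenchymal-like cells (92.0%) held 3 or more members, and 2 of them held all 6.

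Igfbp7 was 7.80-fold (7.59 to 8.01) higher in endothelial-like cells than in all other cells, at 80.6 against 10.3. Across endothelial-like cells it ranged from 0 to 237.1 with a median of 86.3, and 558 of 603 cells (92.5%) had at least 1 UMI. The level was higher in library 2 (100.8) than in library 1 (71.9). In the same comparison Igfbp4 was 6.43-fold lower (0.932 against 6.00), Igfbp3 2.51-fold lower (0.0786 against 0.198), Igfbp5 127.3-fold lower and Igfbp6 458.2-fold lower. Igfbp2, detected in too few cells, was not tested. Thus 5 of 5 members tested passed 2-fold, 1 higher and 4 lower, in a comparison where 49.2% of all 12702 genes did (25.9% higher and 23.3% lower). The median log2 ratio of the 5 members was -2.68, beside 0.41 for all genes tested. In library 1 alone Igfbp3 did not pass 2-fold (log2 ratio -0.96).

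Leaving mesenchymal-like cells out of the other cells ended the difference of Igfbp4 and widened that of Igfbp7. In a comparison added after the values were seen, Igfbp7 was 80.2-fold (73.2 to 88.1) higher in endothelial-like cells, at 80.6 against 1.005. Igfbp4 did not pass 2-fold there, at 0.932 against 1.06. Igfbp6 was 12.9-fold lower, at 0.0140 against 0.182, but 59 of the 84 UMIs on the other side lay in the 17 club-cell-like cells, and the immune clusters together stood at 0.0599. The other 3 members were detected in too few cells. This left 2 of 3 members past 2-fold, where 53.6% of all genes passed (34.5% higher and 19.1% lower).

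The binding proteins of mesenchymal-like cells formed a broad set in which 4 members stood far above the level elsewhere. Against all other cells Igfbp5 was 238.4-fold (176.3 to 330.5) higher, at 12.5 against 0.0526. Igfbp6 was 229.4-fold higher (24.96 against 0.109), Igfbp4 20.5-fold higher (20.6 against 1.005) and Igfbp3 17.9-fold higher (0.744 against 0.0416). Igfbp7 did not pass 2-fold there, at 38.0 (37.0 to 38.9) against 35.6. The median log2 ratio of the 5 members tested was 4.36 beside -0.12 for all genes, of which 15.7% passed 2-fold upward, 21.2% downward and 36.8% in either direction.

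Set directly against endothelial-like cells, 5 members were higher and 1 was lower in mesenchymal-like cells. Igfbp6 was 1777-fold higher (761 to 5477), where the endothelial side rests on 5 UMIs, Igfbp5 495.9-fold higher (260.7 to 1086), Igfbp4 22.1-fold higher and Igfbp3 9.46-fold higher. Igfbp2 was at least 24.4-fold higher, counted against a floor of 3 UMIs in all endothelial-like cells. Igfbp7 was 2.12-fold (2.06 to 2.18) lower, but in library 1 alone, which gave nearly all mesenchymal-like cells, it was 1.89-fold (1.83 to 1.94) lower and did not pass. Of 213 mesenchymal-like cells 209 held an Igfbp7 UMI, and their median cell stood at 30.3. Among all genes 43.3% passed 2-fold, 19.2% higher and 24% lower.

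Endothelial-like cells were clustered again into 4 endothelial subclusters. Endothelial subclusters 1, 2 and 4 were joined as a Car4-high class of 457 cells, and endothelial subcluster 3 was the Gpihbp1- and Vwf-high class of 146 cells. Within the Car4-high class, all 169 cells of endothelial subcluster 1 came from library 1 and all 127 of endothelial subcluster 4 from library 2. Car4 (carbonic anhydrase 4) marks the thin capillary cells of gas exchange called aerocytes, Gpihbp1 anchors lipoprotein lipase in general capillaries and Vwf (von Willebrand factor) marks larger vessels. Car4 stood at 35 in the first class and 13 in the second, Gpihbp1 at 1.64 and 13.8, and Vwf at 0.104 and 5.55. No cluster was high in Vwf without Gpihbp1, so larger-vessel cells could not be separated as a class of their own.

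Igfbp7 and Igfbp4 ran in opposite directions across these classes. Igfbp7 stood at 100.6 (99.3 to 101.9) in Car4-high cells and 39.0 (37.9 to 40.1) in Gpihbp1- and Vwf-high cells, a 2.58-fold (2.50 to 2.66) difference. Igfbp4 stood at 0.167 (0.119 to 0.227) and 2.52 (2.24 to 2.83), 15.1-fold (10.9 to 21.6) lower in Car4-high cells. Both members tested passed 2-fold, while 16.1% of 10637 genes did, 5.71% higher and 10.4% lower in Car4-high cells. The 2 libraries gave the same order, with Igfbp7 at 93.97 and 36.05 in library 1 and at 112.5 and 52.5 in library 2. Igfbp4 stood at 0.168 and 2.34 in library 1 and at 0.163 and 3.33 in library 2.

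Nearly every Car4-high cell held Igfbp7, since 455 of 457 had a UMI. The quartiles of its cells were 78.1 and 118.5, with a median of 98.7 and a highest cell of 237.1. In the Gpihbp1- and Vwf-high class 103 of 146 cells (70.5%) had a UMI, the median was 24.3 and the highest cell 169.7. The classes overlapped widely in single cells, and the second class held many cells at or near 0.

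For Igfbp4, 109 of 146 Gpihbp1- and Vwf-high cells (74.7%) had a UMI but only 35 of 457 Car4-high cells (7.66%). The median depths were 7346 and 5116 UMIs. After thinning each cell to 2500 UMIs the shares were 45.0% and 3.23%. Among lymphocytes, set beside them for scale, gamma-delta-T-cell-like cells held it in 4 of 101 cells (3.96%, or 2.71% after thinning) at a median depth of 3606 UMIs. Their level of 0.1002 (0.0273 to 0.257) overlapped the interval of the Car4-high cells. B-cell-like cells stood lower, at 0.0165 (0.000419 to 0.0922), and T-cell-like cluster 10 higher, at 0.801 (0.466 to 1.28), so lymphocyte classes lay on both sides of the Car4-high level. Because they differed from each other, they give no fixed measure of free RNA. The part that free RNA has in the Car4-high level was not tested. The remaining members were almost unseen in endothelial-like cells. Igfbp3 had 28 UMIs and Igfbp5 9 UMIs in the Gpihbp1- and Vwf-high class and 0 in the Car4-high class, and Igfbp6 had 3 and 2.

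**Figure D2:**
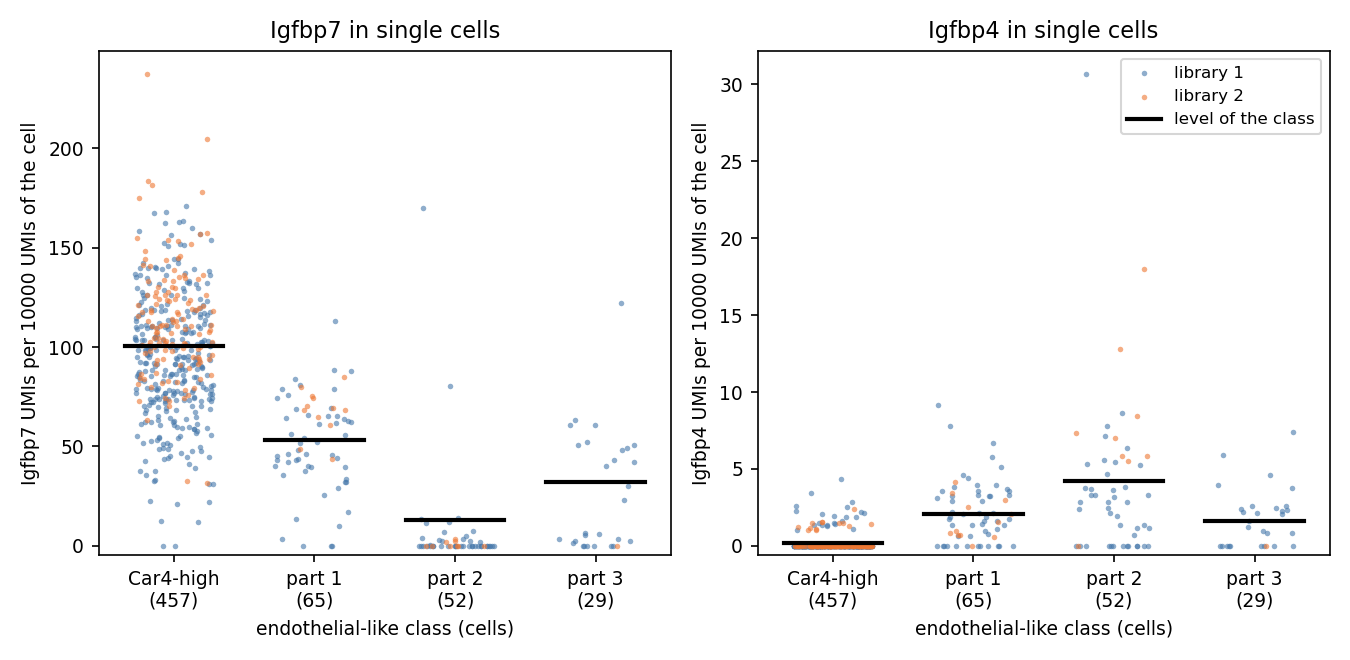
Igfbp7 (left) and Igfbp4 (right) in each endothelial-like cell, as UMIs per 10000 UMIs of the cell, by class, with points coloured by library and a black line at the level of the class. Igfbp7 falls from 100.6 in Car4-high cells to 12.8 in part 2 of the Gpihbp1- and Vwf-high class, where the median cell is at 0, while Igfbp4 is highest in part 2 at 4.19.

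The Gpihbp1- and Vwf-high class was itself mixed, and Igfbp7 ranked as Car4 did across its parts. Clustering it again gave part 1 (65 cells, Car4 at 19.9), part 2 (52 cells, Car4 at 1.16) and part 3 (29 cells, Car4 at 9.13), the last led by the stress-response genes Atf3, Egr1, Fos and Junb. Igfbp7 stood at 53.4 (51.6 to 55.2) in part 1, where 62 of 65 cells held it. In part 3 the level was 32.3, with a median cell of 6.26 and a highest cell of 121.9. Part 2 stood at 12.8 with 19 of 52 cells positive. Most UMIs of part 2 came from 2 cells with 159 and 152 Igfbp7 UMIs, which also held 18 and 9 Igfbp3 UMIs and no Vwf. Without that pair the level of part 2 was 2.45 (1.89 to 3.12). In library 2 part 2 stood at 1.40 and in library 1 at 14.8.

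Igfbp4 was highest where Igfbp7 was lowest, at 4.19 in part 2, 2.07 in part 1 and 1.63 in part 3, with overlapping intervals for parts 1 and 3. The part 2 level was 3.27 in library 1 and 9.55 in the 9 cells of library 2. The highest of those 9 cells stood at 18.02. It held 639 UMIs of the lymphatic endothelial gene Ccl21a, 28 of Mmrn1 and 9 of Prox1, and no UMI of Car4, Gpihbp1 or Vwf. Between Car4-high cells and part 2, a comparison added after the values were seen, Igfbp7 was 7.85-fold (7.09 to 8.72) higher and Igfbp4 25.2-fold (17.5 to 36.9) lower. In that comparison 28.8% of all genes passed 2-fold, 12.1% higher and 16.7% lower in Car4-high cells. Cd93, the endothelial surface receptor that IGFBP7 can bind, took the reverse order of Igfbp7. It stood at 0.187 in Car4-high cells, 7.30 in part 1, 13.6 in part 2 and 9.27 in part 3.

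The same pattern appeared when endothelial-like cells were sorted, without clusters, by which of the transcripts Car4, Gpihbp1 and Vwf they held. Igfbp7 stood at 101.4 (99.8 to 103.0) in the 301 cells with Car4 only and 93.4 in the 157 cells with Car4 and Gpihbp1. It was lower, at 49.7 (48.2 to 51.2), in the 94 cells with all 3 transcripts. In the 30 cells with Gpihbp1 and Vwf but no Car4 UMI it stood at 0.674 (0.323 to 1.24), from 10 UMIs in 7 cells. That last level was close to the 0.549 of the immune clusters together.

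Along the same sequence of patterns Igfbp4 stood at 0.102, 0.534, 2.07 and 2.29, and Cd93 at 0.0954, 1.49, 7.46 and 16.2. The median depths were 4613, 5878, 8758 and 3713.5 UMIs, so the cells lowest in Igfbp7 were also the shallowest, and the cells with all 3 transcripts the deepest. A level per 10000 UMIs does not scale with depth, but a shallower cell is more often called negative for a marker. The 11 cells with Gpihbp1 only stood at 31.2 for Igfbp7, and at 2.03 without 1 of them. The remaining patterns held 5 cells (Car4 and Vwf), 2 cells (Vwf only) and 3 cells (none).

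**Figure D3:**
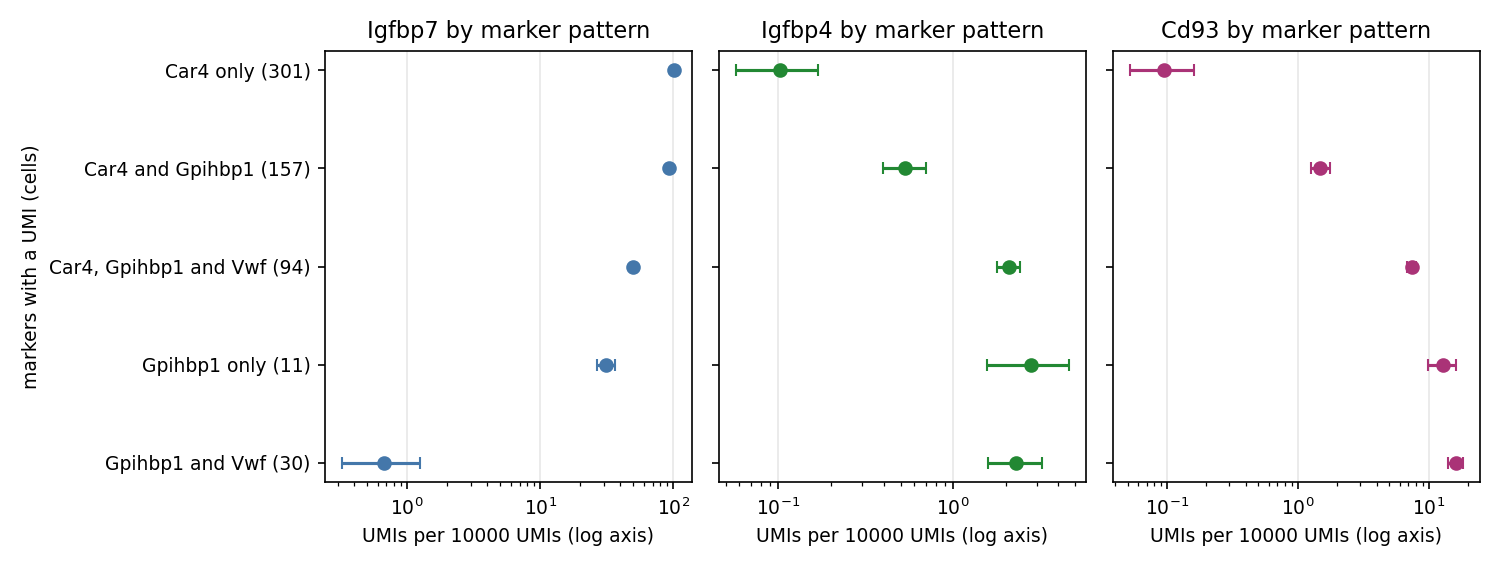
Igfbp7, Igfbp4 and Cd93 in endothelial-like cells grouped by which of Car4, Gpihbp1 and Vwf had a UMI (y axis). Levels are UMIs per 10000 UMIs on a log x axis with 95% Poisson intervals. Igfbp7 falls from 101.4 in cells with Car4 only to 0.674 in cells with Gpihbp1 and Vwf only, while Cd93 climbs from 0.0954 to 16.2.

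Among mesenchymal-like cells the members differed strongly from each other. The 213 cells fell into 5 subclusters. Subcluster 3, with 30 cells, is called contractile from its leading genes, with Acta2 (smooth muscle actin) at 89.9 and Tagln, Myh11, Actg2 and Des among them. It was mixed, since 11 of its cells held 2073 Acta2 UMIs, 6 held 32 and the other 13 held none of Acta2 or Myh11. The other 183 cells were non-contractile, with Inmt, an amine methyltransferase of lung fibroblasts, at 26.5 against 3.16 in the contractile cells. All contractile cells and all but 4 mesenchymal-like cells came from library 1, so no comparison within mesenchymal-like cells could be repeated in library 2.

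Igfbp4, whose product holds IGFs away from their receptor until proteases cut it, was 4.64-fold (3.86 to 5.62) lower in contractile cells, at 5.04 against 23.4. Igfbp6 was 5.56-fold (4.63 to 6.72) lower, at 5.13 against 28.5, and was seen in 14 of 30 contractile cells. Igfbp7 (56.0 against 34.8), Igfbp5 (19.6 against 11.3) and Igfbp3 (1.25-fold) did not pass 2-fold. The log2 ratio of Igfbp5 was 0.80, and -0.47 when the cells were clustered with 30 components, while that of Igfbp7 was 0.69, and -0.15 when cells with markers of several lineages were left out before clustering. Igfbp2 was 3.39-fold (1.51 to 7.29) higher, but its 12 contractile UMIs all lay in 1 cell, which also held 19 UMIs of the endothelial gene Cldn5 beside 245 of Acta2. Without the top cell of each class the log2 ratio of Igfbp2 was 0.56 and did not pass. Thus 3 of 6 members passed 2-fold, where 28.3% of all genes did (17.7% higher and 10.7% lower). The median log2 ratio was 0.50 for the members and 0.15 for all genes tested.

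The contractile subcluster held 6 cells with markers of several lineages and a Car4 level of 2.39. In the 24 contractile cells without such markers Igfbp4 stood at 5.01, Igfbp7 at 51.2, Igfbp5 at 27.2 and Igfbp6 at 1.79. Igfbp6, in particular, was lower by more than 1.5 times without them.

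Split by Acta2 itself, the contractile subcluster separated further. The 11 cells with at least 20 Acta2 UMIs had Igfbp7 in 11 of 11 cells, at 46.2, and Igfbp4 at 1.63 in 4 cells. Their Igfbp6 level of 3.06 rested on 32 UMIs of 1 cell, the same number as the whole group held. Igfbp5 stood at 7.95 in them, below the 11.3 of the non-contractile cells. In 6 cells with 1 to 19 Acta2 UMIs Igfbp5 stood at 73.9 and Igfbp7 at 84.0, where 1 cell held 226 of 285 Igfbp5 UMIs and 205 of 324 Igfbp7 UMIs. In 13 cells of the subcluster without an Acta2 UMI Igfbp4 stood at 8.01, Igfbp5 at 9.98, Igfbp6 at 8.12 and the fibroblast proteoglycan Dcn at 67.6. The cells richest in Acta2 therefore had the lowest Igfbp4, and Igfbp7 was present in each of them.

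**Figure D4:**
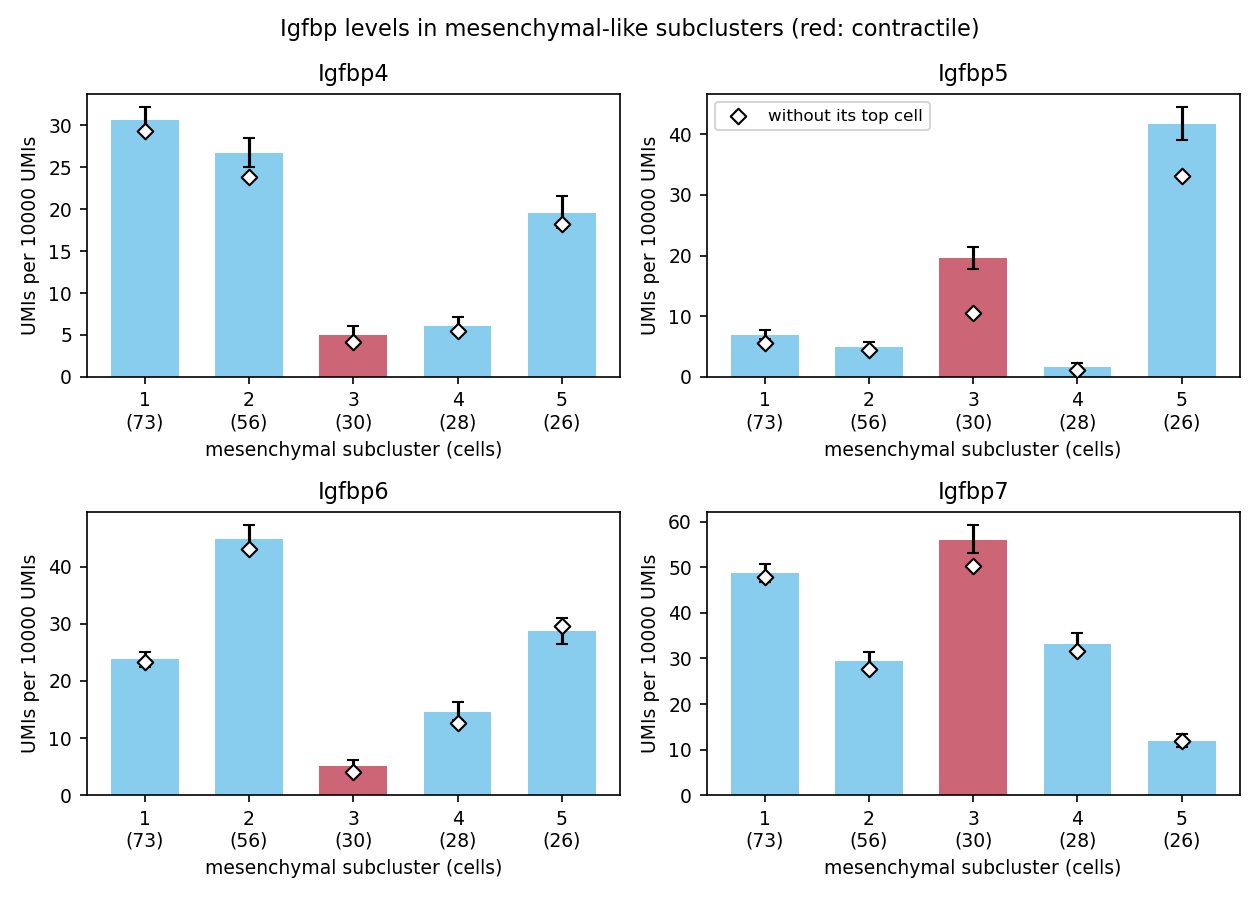
Igfbp4, Igfbp5, Igfbp6 and Igfbp7 in the 5 mesenchymal subclusters, as UMIs per 10000 UMIs with 95% Poisson intervals, with the contractile subcluster in red and diamonds giving the level without the cell holding most UMIs of the gene. Igfbp4 is highest in subcluster 1 (30.7), Igfbp6 in subcluster 2 (44.9), Igfbp5 in subcluster 5 (41.7) and Igfbp7 in subcluster 3 (56.0).

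Each of the 4 abundant members peaked in a different mesenchymal subcluster, although the Igfbp7 peak in the contractile cells was 50.2 without its top cell, close to the 48.7 of subcluster 1. Subcluster 1 (73 cells), led by Apod, Fmod and Ccl11, had the highest Igfbp4 at 30.7, with a UMI in 73 of 73 cells. Its Igfbp5 was 2.23-fold lower than in the other mesenchymal-like cells, where 19.4% of all genes passed 2-fold (4.83% higher and 14.5% lower). Subcluster 2 (56 cells), led by Nrcam, Cyp2e1 and Notum, had the highest Igfbp6 at 44.9, seen in 55 of 56 cells.

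Igfbp3 was 2.67-fold higher in subcluster 2 than in the rest (level 1.45) and Igfbp6 2.33-fold higher, while Igfbp5 was 2.98-fold lower, beside 20.8% of all genes past 2-fold (9.4% higher and 11.4% lower). Of the 32 mesenchymal Igfbp2 UMIs, 17 lay in 5 cells of this subcluster. Subcluster 4 (28 cells), led by Npnt, Limch1 and Scn3a and richest in Inmt (58.0), had the smallest sum of binding protein transcripts at 56.1. Igfbp4 was 3.82-fold lower there (6.08) and Igfbp5 8.58-fold lower (1.69), beside 25.8% of all genes past 2-fold (16.5% higher and 9.3% lower). Igfbp7 stood at 33.3 in that subcluster.

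Subcluster 5 (26 cells), led by Smpd3, Aldh1a2, Sema3c and Sfrp4, was the Igfbp5 subcluster. Igfbp5 stood at 41.7 there, in 22 of 26 cells, and at 33.1 without the top cell of 216 UMIs, a 5.42-fold (4.96 to 5.93) difference from the other mesenchymal-like cells. Igfbp7 was 3.53-fold lower (11.98) and Igfbp3 6.26-fold lower, where 30.3% of all genes passed 2-fold (16.8% higher and 13.6% lower). The subcluster had 4 cells with mesothelial markers, at 30.3 for Igfbp5, while its other 22 cells stood at 45.9. Without this subcluster the non-contractile level of Igfbp5 was 5.16, so the contractile level of 19.6 lay between the subclusters. That contractile level was 10.6 without its top cell of 226 UMIs.

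The highest level of any member in an immune cluster was that of Igfbp4 in macrophages. Interstitial-macrophage-like cells, which reside in the lung tissue rather than the airspace, held Igfbp4 in 90 of 104 cells (86.5%, or 66.0% after thinning), with a median cell of 4.98. Their level was 5.49 (4.97 to 6.05), 27.4-fold (21.1 to 35.9) higher than the 0.201 of the other immune clusters. Both libraries gave it, at 5.37 and 6.05. In this comparison 22.9% of all genes were higher, 11.3% lower and 34.2% past 2-fold in either direction.

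Transcripts that are much more abundant in mesenchymal-like cells were set beside Igfbp4 in those macrophages. Igfbp4 stood at 26.6% (24.1 to 29.4) of its mesenchymal level. Dcn stood at 0.157%, Gsn at 0.583%, Mgp at 0.145% and Igfbp6 at 0.218% of theirs. Igfbp4 thus stood at a larger share of its mesenchymal level than these transcripts did of theirs. The part that free RNA has in the macrophage level was not tested. B-cell-like cells held Igfbp4 in 1 of 82 cells.

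Igfbp7 in immune clusters was low, at 0.549 with 38 of 511 cells positive, and much of it lay in single cells that also carried the endothelial gene Cldn5. In T-cell-like cluster 10, 66 of 72 Igfbp7 UMIs were in 1 cell with 32 Cldn5 UMIs. In interstitial-macrophage-like cells 40 of 68 were in 1 cell with 49 Cldn5 UMIs. B-cell-like cells had 45 of 52 in 1 cell with 42 Cldn5 UMIs. The part that mixed droplets have in these values was not tested.

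Igfbp5 outside the mesenchymal lineage rested on few cells as well. One endothelial-like cell with 13 UMIs of the arterial gene Bmx and 10 of Vwf held 9 Igfbp5 UMIs. A cell of cluster 11 with 459 UMIs of the lymphatic endothelial gene Ccl21a, 39 of Mmrn1 and 4 of Prox1 held 19. Club-cell-like cells, named for secretory cells of the airway, had 63 of the 95 Igfbp2 UMIs. These lay as 33, 23 and 7 UMIs in 3 of 17 cells, with 35, 0 and 28 Cldn5 UMIs beside them. The cluster's leading genes included the alveolar epithelial markers Ager, Sftpa1 and Sftpb beside the airway gene Scgb1a1. Which epithelial type the 3 cells belong to was not tested. The club-cell-like cells had an Igfbp7 level of 5.27 and an Igfbp6 level of 1.32.

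Across the 18 classes the order of levels differed for each member. For Igfbp7 the Car4-high class led at 100.6, followed by the contractile subcluster (56.0) and part 1 of the Gpihbp1- and Vwf-high class (53.4), whose intervals overlapped. Subcluster 1 came next (48.7), then subcluster 4, part 3 and subcluster 2 (33.3, 32.3 and 29.4), neighbours whose intervals again overlapped. Part 2 and subcluster 5 (12.8 and 11.98) were not separated by counting error either. All immune classes lay below the club-cell-like cells.

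Igfbp4 ran from subcluster 1 (30.7) over subcluster 2 (26.7) and subcluster 5 (19.6) to a group without separation by counting error. That group held subcluster 4 (6.08), interstitial-macrophage-like cells (5.49), the contractile subcluster (5.04) and part 2 (4.19), each overlapping its neighbour. Igfbp5 ran from subcluster 5 (41.7) over subclusters 3 (19.6), 1 (6.89) and 2 (4.93) to 4 (1.69), and every other class was at 0.347 or lower. For Igfbp6 the order was subcluster 2 (44.9), 5 (28.7), 1 (23.8), 4 (14.7) and 3 (5.13), then the club-cell-like cells.

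Igfbp7 was somewhat higher in endothelial-like cells with a Cdkn2a UMI. The ratio was nearer to 1 within Car4-high cells and within part 1, but not within the Gpihbp1- and Vwf-high class as a whole. With cells matched in bins of total UMIs, Igfbp7 stood at 93.5 in 327 cells with a Cdkn2a UMI and 69.4 in 276 cells without, a 1.35-fold (1.31 to 1.38) difference that did not pass 2-fold. Igfbp4 was lower with Cdkn2a, at 0.461 against 1.21 (log2 ratio -1.39), and was the 1 of 2 members tested to pass 2-fold. Among all genes 9.36% passed, 2.97% higher and 6.39% lower. In library 1 alone the log2 ratio of Igfbp4 was -0.95, so that neither member passed, and in library 2 it was -2.18.

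Cdkn2a itself was more abundant in Car4-high cells (3.17) than in Gpihbp1- and Vwf-high cells (1.30) or part 2 (0.273). With matching by 3 bins of total UMIs, subcluster and library, which kept 325 and 264 cells, the ratio for Igfbp7 was 1.04 (1.01 to 1.07). Igfbp4 under that matching was at 1.02 (0.760 to 1.36) of the level without Cdkn2a in library 1 and at 0.156 in library 2, the latter from 116 and 24 cells. In library 2 that matching set 1 cell without a Cdkn2a UMI against the 12 Gpihbp1- and Vwf-high cells with one. It was the part 2 cell with 639 Ccl21a UMIs, at 18.02 for Igfbp4. Both libraries together gave 0.436 (0.309 to 0.613). The 0.156 and the 0.436 rested largely on that cell, so the gap between the libraries does not describe the class. Within Car4-high cells Igfbp4 stood at 0.175 with and 0.151 without a Cdkn2a UMI. Within part 1 the levels were 2.04 and 2.12, and within part 3 they were 0.977 (9 cells) and 2.08 (20 cells). In the Gpihbp1- and Vwf-high cells of library 2 Igfbp4 stood at 1.73 in 12 cells with and 8.98 in 10 cells without. The 10 include the cell with 639 Ccl21a UMIs.

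Within the Car4-high class Igfbp7 was nearly level, at 103.2 in 276 cells with a Cdkn2a UMI and 95.9 in 181 cells without. The values were 94.7 and 93.1 in library 1 and 113.2 and 109.4 in library 2. In the Gpihbp1- and Vwf-high class it stood at 50.2 in 51 cells with and 28.9 in 95 cells without. It stood at 43.2 and 31.1 in library 1 and at 67.0 (12 cells) and 1.31 (10 cells) in library 2. These cells differed in part, since all 12 belonged to part 1 while 9 of the 10 belonged to part 2 and the other to part 3. Within part 1 Igfbp7 was nearly level, at 54.7 in 39 cells with a Cdkn2a UMI and 50.5 in 26 cells without, and in library 1 alone at 47.6 and 50.5. Median depths in the whole class were 9480 and 5073 UMIs.

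**Figure D5:**
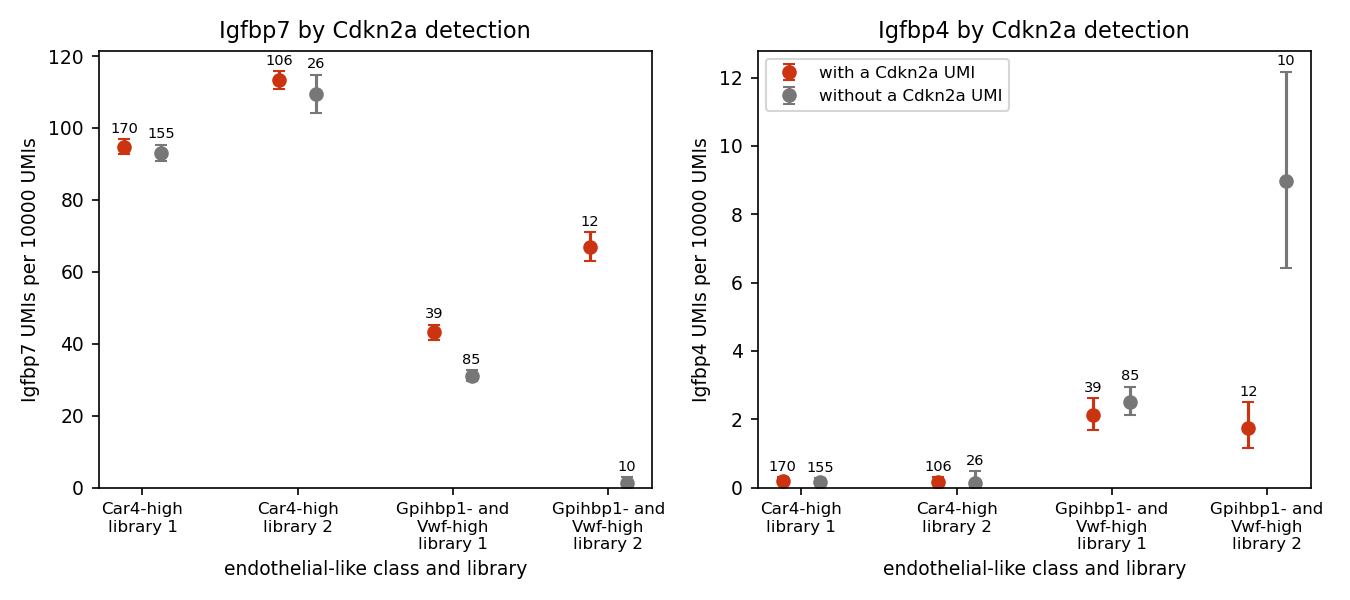
Igfbp7 (left) and Igfbp4 (right) in endothelial-like cells with (red) and without (grey) a Cdkn2a UMI, by class and library, as UMIs per 10000 UMIs with 95% Poisson intervals and the number of cells above each point. In Car4-high cells the red and grey points lie close together in both libraries, while in the 12 and 10 Gpihbp1- and Vwf-high cells of library 2 Igfbp7 stands at 67.0 and 1.31, the 12 being all of part 1 and the 10 of parts 2 and 3.

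Other genes of the IGF axis were followed through a list of 49 ligands, receptors, proteases, partners, adaptors and relatives, 42 of which were in the table. In mesenchymal-like cells against all others 22 of 41 tested axis genes were higher and 5 lower, with a median log2 ratio of 1.15 beside -0.12 for all genes. In endothelial-like cells against all others 10 of 41 were higher and 17 lower, with medians of -0.23 and 0.41. The shares of all genes were 15.7% higher and 21.2% lower in the first of these comparisons and 25.9% and 23.3% in the second. Between Car4-high and Gpihbp1- and Vwf-high cells 2 of 28 were higher and 10 lower in Car4-high cells, beside 5.71% and 10.4% of all genes, with medians of -0.16 and -0.0045. Between contractile and non-contractile cells 5 of 38 were higher and 7 lower, beside 17.7% and 10.7% of all genes. In interstitial-macrophage-like cells against other immune clusters 6 of 26 were higher and 2 lower, close to the 22.9% and 11.3% of all genes.

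Igf1, the ligand analysed here, was almost absent from the cells richest in Igfbp7. It had 1 UMI in 603 endothelial-like cells. Mesenchymal-like cells stood at 1.501, with subcluster 1 at 2.67, and interstitial-macrophage-like cells at 2.75, in 77 of 104 cells. The classes with the most Igfbp4 among fibroblasts and among immune clusters were therefore also those with the most Igf1. Below the leading class the orders differed among mesenchymal subclusters. Subcluster 2 (Igfbp4 at 26.7) and subcluster 5 (19.6) had Igf1 at 0.667 and 0.721. Subcluster 4, with Igfbp4 at 6.08, had Igf1 at 1.56.

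Receptors were spread differently. Igf1r, the signalling receptor for both ligands, stood at 1.01 in endothelial-like cells and 0.750 in mesenchymal-like cells, with its highest level in part 2 (1.36). Cd93 was highest in part 2 (13.6), had 0 UMIs in mesenchymal-like cells and stood at 2.53 in interstitial-macrophage-like cells. Lrp1, an endocytic receptor that takes up IGFBP3, peaked in subcluster 1 at 7.23 and had 2 UMIs in endothelial-like cells. Igf2r, which clears IGF2, reached 1.10 in subcluster 4.

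Several proteases and inhibitors that bear on binding proteins peaked in mesenchymal subclusters. Timp1, an inhibitor of metalloproteases, stood at 8.16 and the protease Mmp3 at 6.35 in subcluster 1. The serine protease Htra3 stood at 4.95 in subcluster 5, where Igfbp5 peaked, and its relative Htra1 at 3.97 in subcluster 2. Ctsd, a lysosomal protease, reached 63.6 in alveolar-macrophage-like cells. Among the relatives with an IGFBP domain, Cyr61 stood at 8.21 in subcluster 1 and Ctgf at 6.15 in the contractile subcluster.

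The adaptor Grb14, which dampens signalling of the insulin receptor, took the same order as Igfbp7 over Car4-high cells, part 1 and part 2. It stood at 3.07 in Car4-high cells, where 338 of 457 cells held it, at 1.66 in part 1 and at 0.341 in part 2. Of the other adaptors and kinases, Pik3r1 stood at 1.96 in the contractile subcluster and Akt1 at 1.39 in Car4-high cells.

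Genes whose levels ran most like each member were taken by Pearson correlation of log2(level + 0.1) over the 17 classes with at least 20 cells and 13692 genes. The classes share libraries and lineages, so these values describe a likeness only. For Igfbp7 they were Tns2 (0.977), Mxra7 (0.975) and Pam (0.967). Igfbp6 had the closest, with Efemp1 (0.998), Pcolce (0.993) and Il17d (0.992). Igfbp5 ran with Zfhx4 (0.978), Kank1 (0.972) and Plac9b (0.968). Igfbp4, present in both fibroblasts and macrophages, had looser ones in Rab34 (0.919), Gas6 (0.899) and Cdkn1c (0.898). Between members, Igfbp5 and Igfbp6 reached 0.910, while Igfbp7 and Igfbp6 reached 0.485. Igfbp3 ran closest with Col15a1 (0.963), Dchs1 (0.96) and Fxyd6 (0.94). These values include an Igfbp3 level of 0.954 in part 2, which was 0.0377 without its 2 cells with most Igfbp7. For Igfbp2 the closest genes were Ndp (0.965), Stk33 (0.963) and Wif1 (0.961), but these values rest on 32 Igfbp2 UMIs in 9 mesenchymal-like cells.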

How the data were processed

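Single mCherry-positive lung cells were measured with 10x Genomics 3′ version 3 chemistry, per the labels' protocols, and processed with Cell Ranger 3.0.2 against mm10, per the submitters' processing notes. No source used here gives the counting strand, the cell filters or any doublet removal. The values the authors deposited are natural log values, ln(UMIs divided by the cell's total, times 10000, plus 1), as the values themselves show. Whole UMIs were recovered (largest deviation 1.78e-10; 2517 to 49467 per cell). PCR duplicates are collapsed by UMI, and intervals cover counting error only, since cells of 1 sample are not replicates.

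Clusters came from scanpy 1.11.5 (2000 variable genes without the members and the axis list, 20 components, 15 neighbours, Leiden resolution 0.5 with igraph 0.11.9) and gave 14 clusters. Clusters were named from marker lists, no doublets were removed, and 26 cells (1.93%) had at least 3 markers of several lineages. Rates, exact Poisson and Clopper-Pearson intervals (95%) used scipy 1.17.1. Shares were also thinned to 2500 UMIs. The 10 bins of total UMIs matched cells in the Cdkn2a comparison, and 3 bins were used where subcluster and library were matched too. Named genes were the members, Cdkn2a, up to 4 genes of each axis role with the highest level in any class, and the 3 genes most like each member. One gene under this rule is not reported. Bmx, Ccl21a, Prox1, Mmrn1 and the macrophage reference genes were chosen after their values were seen. The members and lists were chosen with earlier results of these data known. The steps were tested on simulated data. Alternatives were other clusterings, marker gates, each library, equal cell weights, leaving out top or multi-lineage cells, other thresholds and other matchings.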

Additional observations from a re-analysis of the deposited data

How the results depend on the processing

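With 1 sample, no alternative is a replicate check. In the comparison of endothelial-like cells with all other cells, 5 members passed 2-fold, against 3 in library 2 alone (3 tested) and 2 without the mesenchymal-like cells, a setting added after seeing the data. Contractile against non-contractile cells gave 3 members at 2-fold and 5 at a threshold of 1.5-fold. The Cdkn2a comparison gave 1 member, and 0 in library 1 alone; the cause was not tested. Of 170 log2 ratios of single members under the alternatives, 159 kept their call and 11 did not. Of those past 2-fold in the main setting, 0 changed direction. A change of direction that stayed below 2-fold counted as a kept call. Such changes were seen for Igfbp5 and Igfbp7 between contractile and non-contractile cells. Igfbp5 between contractile and non-contractile cells was the member moved most often, with log2 ratios of 0.80 with all cells, 1.04 with each cell weighted equally, 1.62 under marker gates and 1.93 without subcluster 5, and with -0.47 (no call) with 30 components. With only genes in at least 5% of cells, the share of all genes past 2-fold was 9.54% in place of 16.1% between Car4-high and Gpihbp1- and Vwf-high cells, and 3.46% in place of 9.36% in the Cdkn2a comparison. Requiring 1000 genes per cell removed no cell, and its ratios are among the 170. The contractile comparison was not run in library 2, which held 0 contractile and 4 other mesenchymal-like cells. With a pseudocount of 1 the genes most like Igfbp4 shared 1 of 3. No paired analysis was possible because the labels give 1 group and no result comes from a test. Depth limits Igfbp2, Igfbp3 and, outside mesenchymal-like cells, Igfbp5 and Igfbp6, where a few cells set the level.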
